A study of Mus musculus with 12 samples.

Results

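The genes described here are 29 receptors that guide leukocytes through the body: 6 receptors of lymphoid homing and egress (Ccr7, Cxcr4, Cxcr5, Gpr183, S1pr1, S1pr4), 9 of tissue homing (Ccr2, Ccr4, Ccr6, Ccr8, Ccr9, Ccr10, Cxcr3, Cxcr6, Gpr15), 11 best known from myeloid or other cells (Ccr1, Ccr3, Cxcr1, Cxcr2, Cx3cr1, Xcr1, Ccrl2, Gpr34, S1pr2, S1pr3, S1pr5) and 3 receptors of lipid mediators (Ptger2, Ptger4, Ltb4r1). They were picked by name out of 24062 genes, and all 29 were among the 13509 genes with enough reads to be tested. The study sequenced messenger RNA of CD4+ T cells from C57BL/6 mice, enriched by negative selection and then sorted on a GFP marker. The GFP-positive cells are regulatory T cells (Treg) and the GFP-negative ones conventional T cells (Tconv), compared here in a tumour and in spleens. Tumour-bearing (TB) mice had received 500000 TC-1 cells, a mouse lung epithelial tumour line, into the tail vein 3 weeks earlier, and normal mice carried no tumour. The 6 groups of 2 libraries were tumour Treg, TB spleen Treg, normal spleen Treg, tumour Tconv, TB spleen Tconv and normal spleen Tconv. The labels name no promoter for the GFP, no age and no sex of the mice, and they do not say whether libraries came from single mice or from pools. Tumour libraries are marked LG in the sample descriptions. No group came from that organ in mice without a tumour, so the tumour and its organ cannot be told apart in any contrast with the spleen.

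Chemokine receptors sit in the cell membrane, couple mainly to inhibitory G proteins and turn a gradient of chemokine into directed movement. In T cells, Ccr7 and Cxcr5 lead cells into and within lymphoid organs, S1pr1 leads them out along sphingosine-1-phosphate, and receptors such as Cxcr3, Ccr4, Ccr8 and Cxcr6 are known from cells in inflamed or barrier tissue. Some of the same receptors, among them Ccr2, Ccr1 and Cx3cr1, are carried in quantity by monocytes and macrophages, so their RNA can come from either cell type in a bulk library.

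Library totals ran from 18624132 to 24111546 counts. Foxp3, the transcription factor that defines Treg, averaged 1201 ± 64.5 CPM (reads scaled to the TMM-adjusted library total) in tumour Treg against 13.8 ± 3.33 in tumour Tconv (SD, n = 2 each), and it separated the sorted populations in the same way in both spleens. Cd4 averaged 1040.1 ± 114 CPM in tumour Treg, 1109 ± 92.0 in TB spleen Treg, 1175 ± 14.5 in normal spleen Treg, 1346 ± 99.7 in tumour Tconv, 1387 ± 98.9 in TB spleen Tconv and 1529 ± 30.9 in normal spleen Tconv. The 5 Treg markers summed to 440 to 456 CPM in tumour Tconv, 167 to 196 in TB spleen Tconv and 76.6 to 87.3 in normal spleen Tconv. In Treg the sums were 7200 to 7231, 3397 to 3510 and 3156 to 3327 in the same order of sites. From TB spleen to tumour in Tconv, 2 of the 5 rose, 2 fell and 1 was not called. The part of these markers in the receptor changes of Tconv was not tested. Markers of other cells were present in the tumour libraries. The 13 macrophage and monocyte markers found in the table summed to 474 to 542 CPM in tumour Treg, 121 to 125 in TB spleen Treg, 90.7 to 113 in normal spleen Treg, 252 to 553 in tumour Tconv, 30.7 to 37.4 in TB spleen Tconv and 26.0 to 27.2 in normal spleen Tconv. Lyz2, a lysozyme of macrophages, averaged 263 ± 65.7 CPM in tumour Treg and 1.66 ± 1.31 CPM in TB spleen Treg, and 272 ± 168 CPM in tumour Tconv and 0.426 ± 0.160 CPM in TB spleen Tconv. Most of the macrophage sum of spleen Treg was Cybb, at 113 ± 0.0591 CPM in TB mice and 97.3 ± 15.0 CPM in normal mice.

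The receptors took a larger part of the RNA in the tumour than in the spleen. They held 0.461 and 0.470% of all counts in tumour Treg, 0.249 and 0.265% in TB spleen Treg, 0.238 and 0.251% in normal spleen Treg, 0.432 and 0.428% in tumour Tconv, 0.240 and 0.263% in TB spleen Tconv, and 0.288 and 0.286% in normal spleen Tconv. Per kilobase of exon, 5 of the 29 made up most of the family's signal in each group. In tumour Treg the order of levels was Cxcr4 (446 ± 14.4 CPM per kilobase), Ccr8 (419 ± 36.9), Ccr7 (345 ± 0.904), Cxcr3 (202 ± 3.25) and S1pr1 (128 ± 31.1), which together held 71.8% of the summed level per length. The first 2 lay within their spread of each other. In TB spleen Treg the same 5 genes led, as Cxcr4 (175 ± 6.44), S1pr1 (133 ± 0.585), Ccr7 (105 ± 9.57), Cxcr3 (104 ± 4.34) and Ccr8 (80.4 ± 0.208), at 61.9%. In normal spleen Treg, S1pr1 (213 ± 20.8) stood first and S1pr4 took the place of Ccr8. Tconv of all 3 sites were led by Ccr7 and S1pr1, at 691 ± 44.9 and 602 ± 14.2 CPM per kilobase in the tumour, 292 ± 16.7 and 266 ± 1.16 in the TB spleen and 410.2 ± 1.88 and 381 ± 14.3 in the normal spleen.

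**Figure D1:**
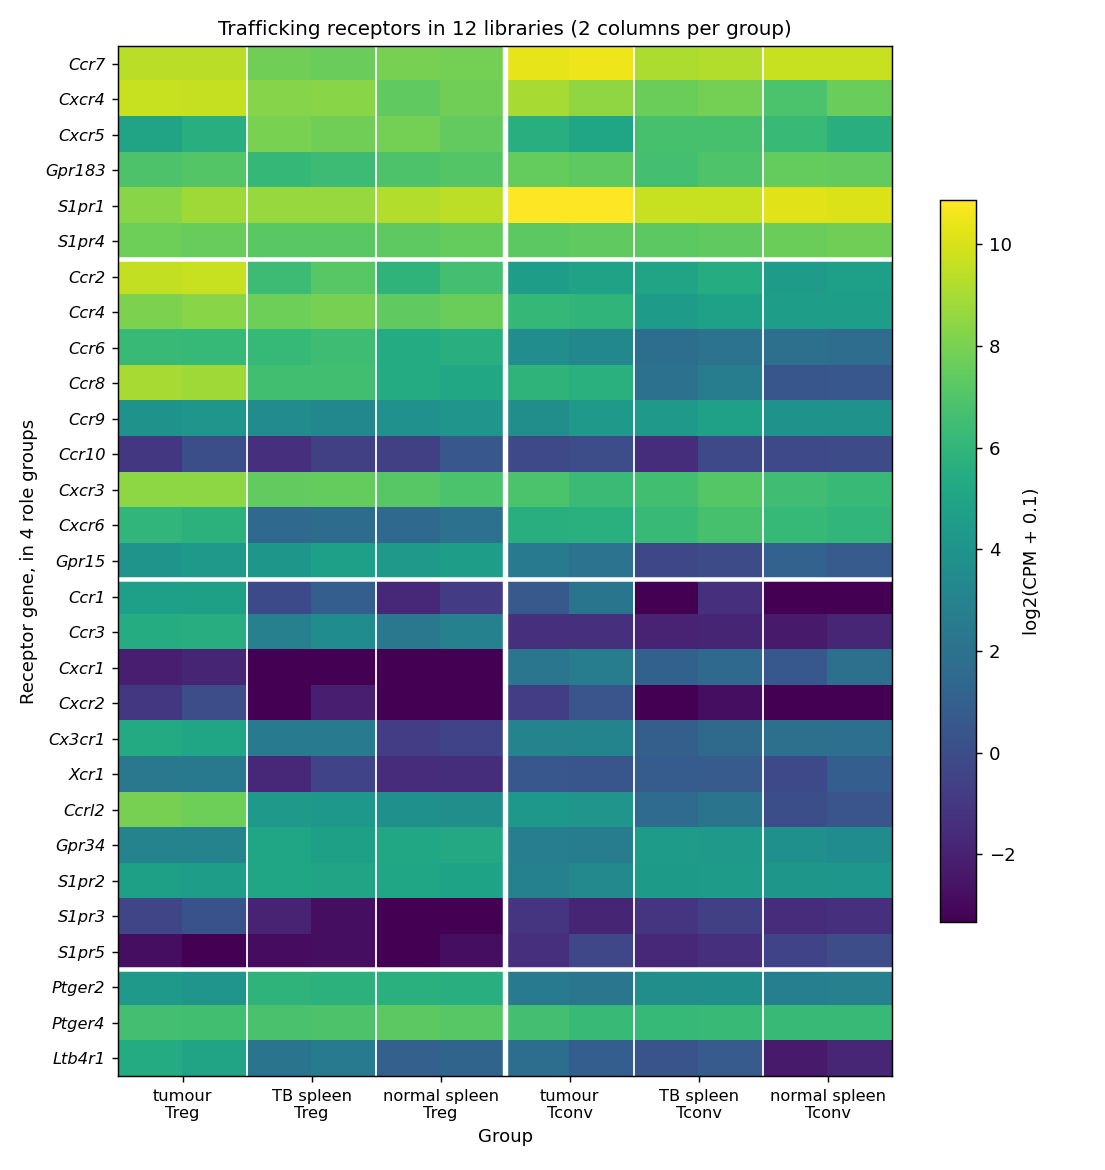
Level of each of the 29 receptors (rows, in the 4 role groups from top to bottom: lymphoid homing and egress, tissue homing, myeloid or other-cell, lipid mediator) in each of the 12 libraries (columns, 2 per group), as log2(CPM + 0.1). Ccr8 is bright in both tumour Treg libraries (523 and 462 CPM), and Cxcr6 is dark in all 4 spleen Treg libraries (2.78 to 3.78 CPM) and not in the other 8.

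Tumour Treg were compared with TB spleen Treg, and tumour Tconv with TB spleen Tconv, in 1 edgeR quasi-likelihood fit of all 12 libraries; a gene was called at a Benjamini-Hochberg adjusted p under 0.05 over all tested genes. Changes are log2 fold changes ± SE, tumour over spleen. Of the 29 receptors, 24 were called in Treg, 19 higher and 5 lower, where the background over all tested genes was 61.4% called, 32.8% higher and 28.7% lower. In Tconv 19 were called, 13 higher and 6 lower, against a background of 49.1% called, 26.4% higher and 22.8% lower. The median change of the receptors was 0.96 in Treg and 0.70 in Tconv, where the median of all tested genes was 0.02 in Treg and 0.00 in Tconv. 10 receptors rose in both cell types, and 4 fell in both (Cxcr5, Gpr34, S1pr2, Ptger2). Cxcr6 and Ccr9 rose in Treg and fell in Tconv. Another 8 were called in Treg alone (S1pr4, Ccr2, Cxcr3, Ccr3, Xcr1, S1pr3, Ptger4, Ltb4r1) and 3 in Tconv alone (S1pr1, Ccr6, Gpr15), a split that is tested below as a difference between the cell types. The share of all tested genes with each of these joint patterns was not computed, so these counts have no background. Some of the calls, such as those of Cxcr1 and Cxcr2, were lost without single libraries, as given below. In these bulk libraries, more cells that carry a receptor and more receptor RNA per cell cannot be told apart.

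**Figure D2:**
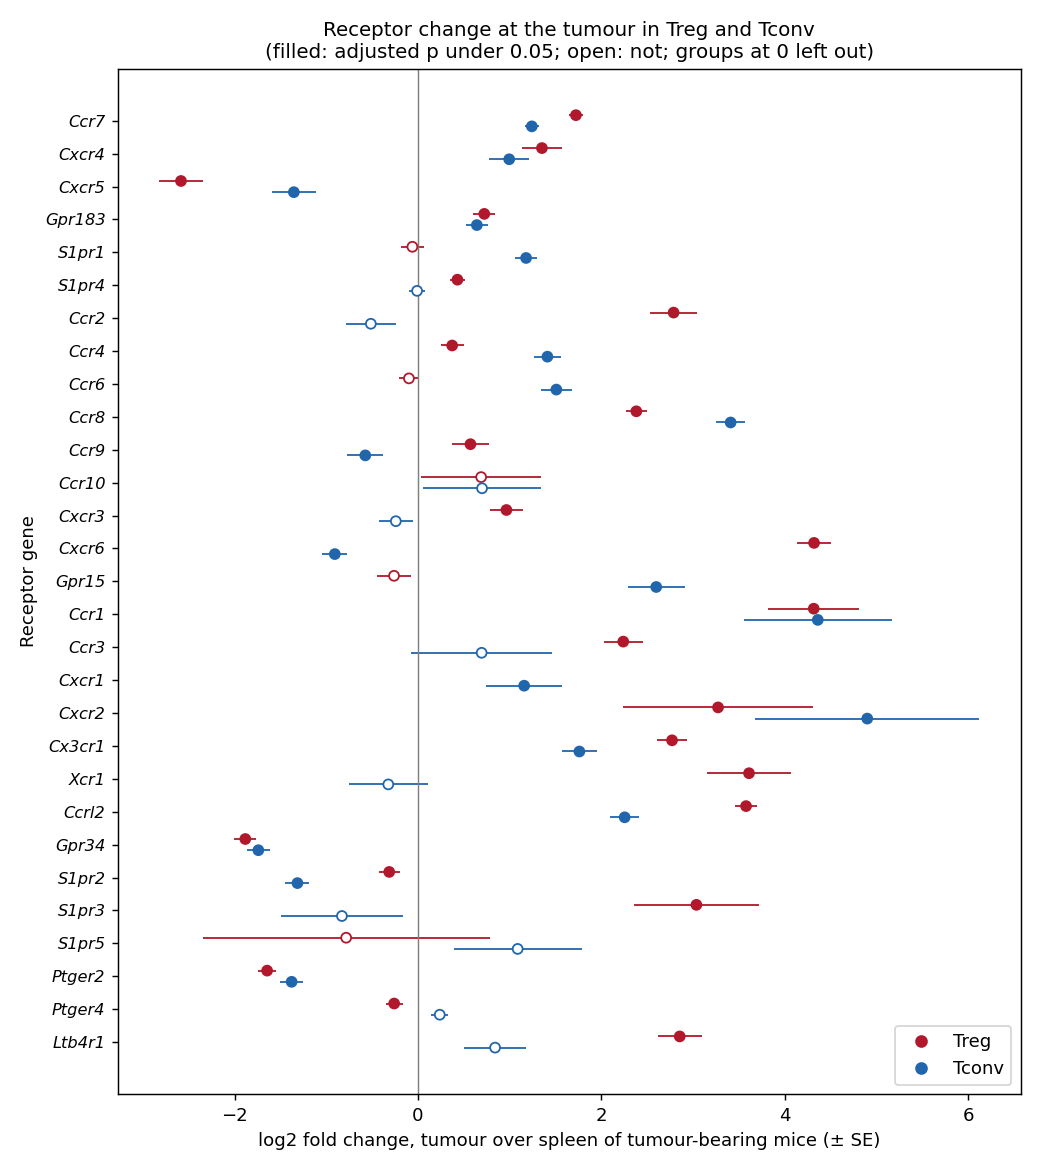
Log2 fold change of each receptor, tumour over TB spleen, in Treg (red) and Tconv (blue), with bars of 1 SE; filled points passed an adjusted p of 0.05, and Cxcr1 in Treg is left out because its TB spleen libraries held 0 counts. Cxcr6 and Ccr2 lie far to the right in Treg (4.32 and 2.79) and to the left of 0 in Tconv (-0.91 and -0.51), while Ccr6 and Gpr15 are near 0 in Treg and at 1.51 and 2.60 in Tconv.

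Among the 6 receptors of lymphoid homing and egress, 4 rose and 1 fell in each cell type, S1pr4 being among the 4 in Treg alone and S1pr1 in Tconv alone. That is 83.3% called in each cell type, against 61.4% of all tested genes in Treg and 49.1% in Tconv. Ccr7, the receptor for entry into lymph nodes, had 681 and 684 CPM in tumour Treg against 220.1 and 193 in TB spleen Treg, a change of 1.72 ± 0.08 (edgeR adjusted p = 7.14e-09). In Tconv it had 1304 and 1429 CPM in the tumour against 554 and 601 in the TB spleen (1.24 ± 0.08, edgeR adjusted p = 1.21e-07). The groups did not overlap in either cell type. Cxcr4, the receptor for the stromal chemokine Cxcl12, had 824 and 787 CPM in tumour Treg against 307 and 324 in TB spleen Treg (1.35 ± 0.22), and 523 and 371 CPM in tumour Tconv against 208 and 239.8 in TB spleen Tconv (1.00 ± 0.22). Gpr183, an oxysterol receptor that places lymphocytes within lymphoid tissue, rose by a smaller step, 0.72 ± 0.12 in Treg and 0.64 ± 0.12 in Tconv. Cxcr5, which leads T cells to B cell follicles, fell in both. It had 31.2 and 48.5 CPM in tumour Treg against 253 and 225 in TB spleen Treg (-2.58 ± 0.24), and 49.6 and 33.7 CPM in tumour Tconv against 106 and 106 in TB spleen Tconv (-1.35 ± 0.24). Within the tumour the Treg over Tconv difference was -0.06 ± 0.24, which did not pass the test.

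The sphingosine-1-phosphate receptors of this role behaved differently from each other. S1pr1, the main egress receptor of lymphocytes, had 1864 and 1803 CPM in tumour Tconv against 812 and 807 in TB spleen Tconv (1.18 ± 0.12, edgeR adjusted p = 1.05e-05). In tumour Treg it had 322 and 455 CPM against 404 and 406 in TB spleen Treg, values that overlap, with a change of -0.06 ± 0.12. That change depended on 1 library: without tumour Treg 2 it was -0.33 and passed the test (edgeR adjusted p = 0.0063). S1pr4, a second lymphocyte receptor for the same lipid, had 215 and 191 CPM in tumour Treg against 150.2 and 152 in TB spleen Treg (0.43 ± 0.08), and its change in Tconv was -0.01 ± 0.08.

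Among the 9 tissue-homing receptors, 6 rose and 3 were not called in Treg (Ccr6, Ccr10 and Gpr15), and 4 rose and 2 fell in Tconv. That is 66.7% called in each cell type, against 61.4% of all tested genes in Treg and 49.1% in Tconv. The share called in Treg thus lay near the background. Ccr8, a receptor known from Treg of tumours and skin, had 523 and 462 CPM in tumour Treg against 94.6 and 94.3 in TB spleen Treg (2.38 ± 0.12, edgeR adjusted p = 1.37e-08). In Tconv it had 59.7 and 50.8 CPM in the tumour against 4.01 and 6.24 in the TB spleen (3.41 ± 0.16, edgeR adjusted p = 8.74e-09). The tumour Tconv level was thus still below that of TB spleen Treg. Ccr2, the receptor for Ccl2, had 750.4 and 821 CPM in tumour Treg against 83.8 and 144 in TB spleen Treg (2.79 ± 0.25, edgeR adjusted p = 1.94e-06). In tumour Tconv it had 24.1 and 29.03 CPM against 31.6 and 44.3 in TB spleen Tconv, and the change of -0.51 ± 0.27 did not pass. The macrophage markers, whose source cells also carry Ccr2, were higher in both cell types: all 12 tested rose in tumour Treg and all 12 in tumour Tconv. Over all tested genes, 32.8% were called higher in Treg and 26.4% in Tconv. The part of macrophages in the Ccr2 change was not tested.

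Cxcr6, the receptor for Cxcl16 on tissue-resident T cells, went in opposite directions. It had 63.8 and 55.2 CPM in tumour Treg against 2.78 and 3.17 in TB spleen Treg (4.32 ± 0.19, edgeR adjusted p = 4.3e-09), and 47.9 and 52.0 CPM in tumour Tconv against 79.2 and 108 in TB spleen Tconv (-0.91 ± 0.14, edgeR adjusted p = 0.000174). Within the tumour the Treg over Tconv difference was 0.25 ± 0.14, which did not pass. The NK cell markers, which NKT cells share, summed to 31.0 to 37.5 CPM in tumour Tconv and 64.6 to 96.2 in TB spleen Tconv. Of 3 tested NK cell markers 1 fell and 2 were not called in tumour Tconv, with a median change of -0.42, and Klra8 was at 0 in both groups. The part of these markers in the Tconv change was not tested.

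Cxcr3, the receptor for interferon-induced chemokines, had 354 and 346 CPM in tumour Treg against 174 and 185 in TB spleen Treg (0.96 ± 0.18), and 117 and 81.1 CPM in tumour Tconv against 93.2 and 139.9 in TB spleen Tconv (-0.24 ± 0.18, not called; -0.51 and called without tumour Tconv 1 and without TB spleen Tconv 1). Ccr4, a receptor for Ccl17 and Ccl22, had 70.0 and 61.9 CPM in tumour Tconv against 21.7 and 27.7 in TB spleen Tconv (1.41 ± 0.14). In Treg it had 269.7 and 330.3 CPM in the tumour against 211 and 253 in the TB spleen (0.37 ± 0.13), a call that was lost without tumour Treg 2 (0.22), without TB spleen Treg 1 (0.24) and with library-size scaling (0.21, edgeR adjusted p = 0.158). Ccr6, the receptor for Ccl20 on Th17-type cells, and Gpr15, a gut-homing receptor, rose in Tconv only as far as their own tests go. Ccr6 had 12.1 and 9.66 CPM in tumour Tconv against 3.39 and 4.17 in TB spleen Tconv (1.51 ± 0.17), and Gpr15 had 5.58 and 4.17 CPM in tumour Tconv against 0.730 and 0.853 in TB spleen Tconv (2.60 ± 0.31). In Treg their changes were -0.10 ± 0.11 for Ccr6 and -0.26 ± 0.19 for Gpr15, and neither passed. Gpr15 held 33 reads over the TB spleen Tconv group, and a gene on the opposite strand shares 12.5% of its exonic bases.

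Ccr9, a receptor for homing to the small intestine, had 14.9 and 16.6 CPM in tumour Treg against 11.4 and 9.78 in TB spleen Treg (0.57 ± 0.20), and 12.6 and 19.7 CPM in tumour Tconv against 20.3 and 28.0 in TB spleen Tconv (-0.57 ± 0.20). The groups did not overlap in either cell type, but both calls rest on single libraries. The Treg call was lost without tumour Treg 2 (0.49) and without TB spleen Treg 2 (0.46), and with library-size scaling (0.41, edgeR adjusted p = 0.0982). The Tconv call was lost without tumour Tconv 1 (-0.29) and without TB spleen Tconv 2 (-0.32), and in a fit of only the groups compared (-0.54, edgeR adjusted p = 0.126). Of the exonic bases of Ccr9, 19% are shared with genes on the opposite strand. Ccr10, a skin-homing receptor, held 5 to 30 reads in each library, and no comparison of it passed.

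Of the 11 receptors best known from myeloid or other cells, 8 rose and 2 fell in tumour Treg, and 5 rose and 2 fell in tumour Tconv. Their median change was 3.04 in Treg and 1.09 in Tconv. The shares called were 90.9% in Treg and 63.6% in Tconv, against 61.4% and 49.1% of all tested genes. Ccrl2, a receptor that binds the chemoattractant chemerin without classical signalling, had 249 and 209 CPM in tumour Treg against 19.2 and 19.1 in TB spleen Treg (3.58 ± 0.12, edgeR adjusted p = 5.29e-10). In Tconv it had 18.8 and 16.8 CPM in the tumour against 3.02 and 4.35 in the TB spleen (2.25 ± 0.16). Ccr1, a receptor for Ccl3 and Ccl5, had 25.5 and 27.1 CPM in tumour Treg against 0.818 and 1.82 in TB spleen Treg (4.32 ± 0.49; 5.00 without TB spleen Treg 2). In Tconv it had 1.47 and 4.54 CPM in the tumour against 0 and 0.269 in the TB spleen (4.36 ± 0.80), a size that rests on few reads: it was 3.28 without tumour Tconv 2 and 3.48 without TB spleen Tconv 1, and without TB spleen Tconv 2 the spleen held no read.

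Ccr3, the receptor for eotaxins that defines eosinophils and is also known from type 2 helper cells, had 44.1 and 44.9 CPM in tumour Treg against 7.15 and 11.7 in TB spleen Treg (2.24 ± 0.21). Tconv held 5 and 6 reads in the tumour and 3 and 4 in the TB spleen. The 5 eosinophil markers in the table summed to 1.43 to 1.49 CPM in tumour Treg and 0.450 to 0.508 in TB spleen Treg, and to 0.677 to 1.72 CPM in tumour Tconv and 0.0449 to 0.104 in TB spleen Tconv. The 1 of them that was tested, Ear1, rose in both cell types, with no read in either TB spleen group, as was so of Ear2 and Epx; Epx was also at 0 in tumour Treg. Their part in the Ccr3 change was not tested. Cx3cr1, the fractalkine receptor of patrolling monocytes and effector T cells, had 41.0 and 34.0 CPM in tumour Treg against 5.52 and 5.46 in TB spleen Treg (2.77 ± 0.17, edgeR adjusted p = 7.83e-08). In Tconv it had 8.06 and 8.34 CPM in the tumour against 1.88 and 2.92 in the TB spleen (1.76 ± 0.19). Xcr1, a receptor of cross-presenting dendritic cells, had 5.12 and 5.20 CPM in tumour Treg against 0.204 and 0.635 in TB spleen Treg (3.61 ± 0.46; 3.01 without TB spleen Treg 1 and 4.62 without TB spleen Treg 2). In Tconv its change was -0.32 ± 0.43, which did not pass.

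The neutrophil chemokine receptors were near the limit of detection in Treg. Cxcr1 held 3 and 4 reads in tumour Treg and 0 in both TB spleen Treg libraries, a rise of at least 2.44-fold if the spleen group is set to a floor of 3 reads. The call was lost without any 1 of the 4 libraries compared, and also without either tumour Tconv library, whose spread enters the fit (edgeR adjusted p = 0.0534 to 0.103). In Tconv Cxcr1 had 4.74 and 6.03 CPM in the tumour against 2.03 and 2.78 in the TB spleen (1.16 ± 0.42; 0.96 and lost without tumour Tconv 2, 0.95 and lost without TB spleen Tconv 1, 1.40 and lost without TB spleen Tconv 2, and 1.16 and lost without either tumour Treg library). Cxcr2 held 9 and 21 reads in tumour Treg against 0 and 3 in TB spleen Treg, and 9 and 27 reads in tumour Tconv against 0 and 1 in TB spleen Tconv. Both differences passed the test, but the Treg call was lost without tumour Treg 2 (edgeR adjusted p = 0.141) and without TB spleen Treg 1 (0.113), and the Tconv call without TB spleen Tconv 1 (0.0523). The neutrophil markers summed to 33.1 to 37.7 CPM in tumour Treg and 2.25 to 10.2 in TB spleen Treg, and to 13.3 to 27.9 CPM in tumour Tconv and 0.104 to 1.44 in TB spleen Tconv. The dendritic cell markers summed to 31.0 to 34.5 CPM in tumour Treg and 5.03 to 5.59 in TB spleen Treg, and to 9.76 to 17.1 CPM in tumour Tconv and 0.990 to 2.42 in TB spleen Tconv. Of 10 tested neutrophil markers 4 rose and 2 fell in Treg and 7 rose in Tconv, and of 4 tested dendritic cell markers 2 rose in each. The shares called were 60% and 70% for neutrophil markers and 50% in each cell type for dendritic cell markers. Over all tested genes they were 61.4% in Treg and 49.1% in Tconv. Elane was at 0 in tumour Treg, Mpo, Elane and Camp in tumour Tconv, Siglech in tumour Treg and Cd209a in tumour Tconv. The part of other cells in the changes of this role group was not tested.

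Gpr34, a lysophosphatidylserine receptor, and S1pr2, a sphingosine-1-phosphate receptor that restrains migration, fell in the tumour. Gpr34 had 8.07 and 7.95 CPM in tumour Treg against 32.0 and 27.1 in TB spleen Treg (-1.88 ± 0.12), and 6.60 and 6.08 CPM in tumour Tconv against 21.7 and 20.6 in TB spleen Tconv (-1.74 ± 0.13). S1pr2 had 7.39 and 10.2 CPM in tumour Tconv against 21.4 and 22.6 in TB spleen Tconv (-1.31 ± 0.13). Its call in Treg was small (-0.31 ± 0.12) and was lost without any 1 of the 4 libraries compared, at -0.26 to -0.37. S1pr3, an endothelial and myeloid receptor, held 16 and 25 reads in tumour Treg against 4 and 1 in TB spleen Treg (3.04 ± 0.68; 4.22 without TB spleen Treg 1 and 2.41 without TB spleen Treg 2). S1pr5, a receptor of NK cells, held at most 1 read in any Treg library.

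The 3 lipid mediator receptors had no common direction. Ptger2, a prostaglandin E2 receptor that raises cyclic AMP, had 19.8 and 16.99 CPM in tumour Treg against 59.6 and 55.6 in TB spleen Treg (-1.65 ± 0.10, edgeR adjusted p = 8.79e-08), and 5.58 and 4.58 CPM in tumour Tconv against 13.0 and 13.3 in TB spleen Tconv (-1.38 ± 0.13, edgeR adjusted p = 3.75e-06). Ptger4, the other cyclic AMP-raising receptor of the same ligand, had 98.5 and 95.1 CPM in tumour Treg against 113 and 119 in TB spleen Treg (-0.26 ± 0.09), a call lost without tumour Treg 1 (-0.29), tumour Treg 2 (-0.23) and TB spleen Treg 2 (-0.22), and with DESeq2 or its size factors (-0.22 each). Its change in Tconv was 0.24 ± 0.09, which did not pass, but did without tumour Tconv 2 (0.39), with DESeq2 (0.28), with DESeq2 size factors in edgeR (0.28), with no low-count filter (0.26) and with a filter of CPM 1 in 2 libraries (0.25). Ltb4r1, the leukotriene B4 receptor, had 42.0 and 31.6 CPM in tumour Treg against 4.33 and 5.84 in TB spleen Treg (2.85 ± 0.24), and 3.33 and 1.77 CPM in tumour Tconv against 1.20 and 1.57 in TB spleen Tconv (0.84 ± 0.34; not called, but called without tumour Tconv 2 at 1.24, with DESeq2 at 0.90, with its size factors in edgeR at 0.88 and with no low-count filter at 0.86). Of the exonic bases, 7.51% in Ptger2 and 16.5% in Ptger4 are shared with genes on the opposite strand.

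Whether the change at the tumour differed between the cell types was tested as an interaction, the Treg change minus the Tconv change. Of the 29 receptors, 19 were called, 12 positive and 7 negative, against a background of 24.7% called, 11.7% positive and 13.1% negative. Cxcr6 had the largest difference, 5.23 ± 0.23 (edgeR adjusted p = 1.26e-07), followed by Xcr1 (3.93 ± 0.63; 3.34 without TB spleen Treg 1 and 4.95 without TB spleen Treg 2), S1pr3 (3.87 ± 0.96; 3.50, 3.24 and 3.55, each no longer called, without tumour Treg 2, TB spleen Treg 2 and TB spleen Tconv 2) and Ccr2 (3.30 ± 0.37, edgeR adjusted p = 7.6e-05). For Ltb4r1 it was 2.01 ± 0.42, for Ccrl2 1.32 ± 0.20, for Cxcr3 1.21 ± 0.26 and for Ccr7 0.48 ± 0.11. These receptors gained more, or lost less, in Treg. On the other side, the change was larger in Tconv for Gpr15 (-2.86 ± 0.37), Ccr6 (-1.61 ± 0.21), S1pr1 (-1.24 ± 0.17, edgeR adjusted p = 0.000412), Ccr4 (-1.04 ± 0.19) and Ccr8 (-1.03 ± 0.20). Ccr4, Ccr6, Ccr8 and Gpr15 all stood higher in spleen Treg than in spleen Tconv, so their gap narrowed in the tumour. The 5 Treg markers summed to 440 to 456 CPM in tumour Tconv and 167 to 196 in TB spleen Tconv, with 2 called higher and 2 lower. Their part in this narrowing was not tested. For Cxcr4, Gpr183, Ccr1, Gpr34 and Ptger2, called in both cell types, the interaction did not pass, with differences of 0.36 ± 0.30, 0.08 ± 0.17, -0.04 ± 0.58, -0.14 ± 0.17 and -0.27 ± 0.16. Nor did the interaction pass for Ccr3, which was called in Treg alone. Tconv held 11 reads of Ccr3 over the tumour group and 7 over the TB spleen group, so a Ccr3 rise particular to Treg was not shown.

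The promoters of 5 receptors are shown to set their sequences beside these changes. Ccr8, Ccr1 and Ccrl2 rose in both cell types, with the largest smaller-of-2 changes among receptors above 1 CPM in both tumour groups; Ptger2 fell in both, and Cxcr6 changed in opposite directions. They were chosen after their values were seen. Each line gives the 250 bases before the RefSeq start site (GRCm38.p6), 5′ to 3′ on the gene's strand, in lower case. Capitals mark matches, on either strand, to any of the motifs given after the sequences; no 2 matches overlap in these windows. Where RefSeq gives several starts, the most upstream one is used.
Ccr8: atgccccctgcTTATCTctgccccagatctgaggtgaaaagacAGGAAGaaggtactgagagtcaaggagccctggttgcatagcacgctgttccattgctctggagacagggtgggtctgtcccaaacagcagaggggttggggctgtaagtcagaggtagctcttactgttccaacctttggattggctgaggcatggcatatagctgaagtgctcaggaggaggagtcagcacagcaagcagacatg
Ccr1: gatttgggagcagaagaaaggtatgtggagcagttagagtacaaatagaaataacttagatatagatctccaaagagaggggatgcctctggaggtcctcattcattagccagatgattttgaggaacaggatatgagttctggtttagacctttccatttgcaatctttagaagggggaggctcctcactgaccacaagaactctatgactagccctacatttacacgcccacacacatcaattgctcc
Ccrl2: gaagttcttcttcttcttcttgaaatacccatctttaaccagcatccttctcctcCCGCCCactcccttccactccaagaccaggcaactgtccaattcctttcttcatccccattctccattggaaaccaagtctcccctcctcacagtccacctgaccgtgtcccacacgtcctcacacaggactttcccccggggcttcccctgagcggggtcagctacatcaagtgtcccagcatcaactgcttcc
Ptger2: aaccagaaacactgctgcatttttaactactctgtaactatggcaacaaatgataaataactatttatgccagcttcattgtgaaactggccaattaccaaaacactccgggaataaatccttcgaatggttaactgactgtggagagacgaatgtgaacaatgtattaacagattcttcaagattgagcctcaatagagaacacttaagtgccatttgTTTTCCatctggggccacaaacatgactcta
Cxcr6: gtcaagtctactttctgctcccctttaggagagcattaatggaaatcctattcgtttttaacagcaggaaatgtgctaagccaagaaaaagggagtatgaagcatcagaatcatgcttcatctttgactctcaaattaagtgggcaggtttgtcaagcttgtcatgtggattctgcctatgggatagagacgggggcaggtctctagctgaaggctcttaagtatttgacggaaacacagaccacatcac
The Ccr8 window (chr9:120091883-120092132, plus strand) holds a GATA match that begins 239 bases before the start and an ETS match that begins 207 bases before it. The Ccrl2 window (chr9:111057519-111057768, minus strand) holds a KLF/SP match at 195 bases, and the Ptger2 window (chr14:44987861-44988110, plus strand) an NFAT core match at 31 bases. In the Ccr1 window (chr9:123968693-123968942, minus strand) and the Cxcr6 window (chr9:123806227-123806476, plus strand) no match was found. The AP-1 letters (TGANTCA) were in 6.85% of the 27025 promoters of the RefSeq table, 1 per gene, and in 3 of the 24 receptor promoters found there. The CRE letters (TGACGTCA) were in 1.6% of all promoters and 1 receptor promoter. The GATA letters (AGATAA) were in 10.2% and in 3 receptor promoters. The NFAT core (GGAAAA) was in 20.7% and in 5. The NF-kB motif was in 1.18% and in 1, that of Ccr3. The ETS letters (AGGAAG) were in 29.2% and in 7. The KLF/SP letters (GGGCGG) were in 33% and in 7.

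Within each site, Treg were compared with Tconv. In the tumour 23 of the 29 receptors were called, 18 higher and 5 lower in Treg, against a background of 53.9% called, 27.2% higher and 26.7% lower. In the TB spleen 24 were called, 16 higher and 8 lower (background 40.3% called, 21% higher, 19.4% lower). In the normal spleen 24 were called, 14 higher and 10 lower (background 40.6% called, 21.8% higher, 18.7% lower). The median Treg over Tconv difference of the receptors was 1.55 in the tumour, 0.61 in the TB spleen and 0.64 in the normal spleen, where all tested genes had a median of 0.00 at each site. 12 receptors were higher in Treg at all 3 sites (Ccr2, Ccr4, Ccr6, Ccr8, Cxcr3, Gpr15, Ccr3, Ccrl2, Gpr34, S1pr2, Ptger2, Ltb4r1) and 4 were lower at all 3 (Ccr7, Gpr183, S1pr1, Cxcr1). S1pr4, Cx3cr1, Xcr1 and S1pr3 were called in opposite directions at different sites. How many of all tested genes meet these conditions over the 3 sites was not computed, so these counts have no background.

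**Figure D3:**
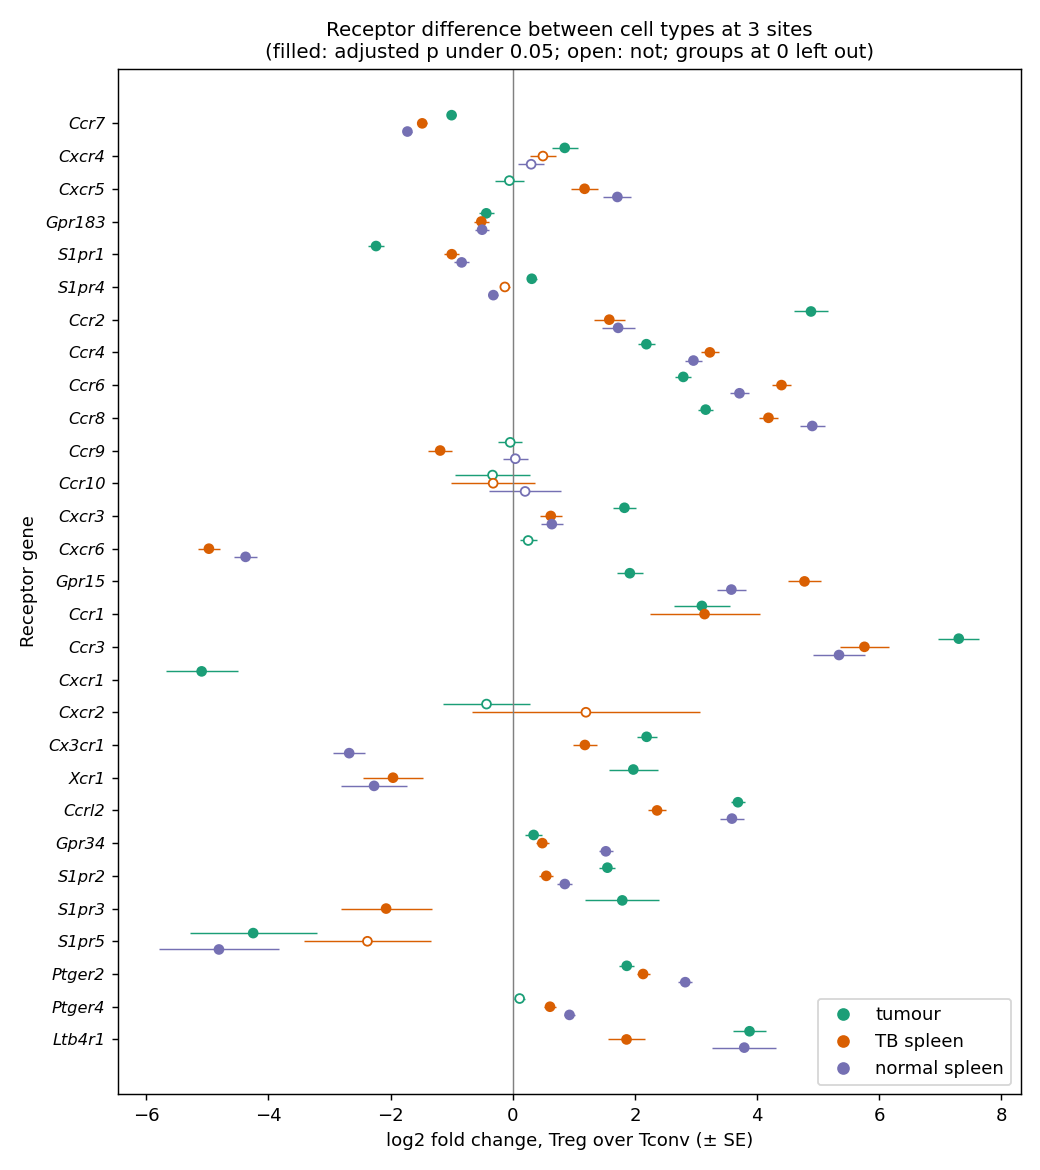
Log2 fold change of each receptor, Treg over Tconv, in the tumour (green), the TB spleen (orange) and the normal spleen (purple), with bars of 1 SE; filled points passed an adjusted p of 0.05, and a site where a group held 0 counts is left out. Ccr3, Ccr4, Ccr6, Ccr8 and Gpr15 lie to the right at every site, S1pr1 and Ccr7 to the left, and Cxcr6 lies at 0.25 in the tumour, -4.98 in the TB spleen and -4.37 in the normal spleen.

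Ccr4, Ccr6, Ccr8 and Gpr15 were higher in Treg at every site. Not all 9 tissue-homing receptors were: at each site 6 were called higher in Treg. Called lower were 0 in the tumour, 2 in the TB spleen and 1 in the normal spleen. The shares called were 66.7%, 88.9% and 77.8%, against 53.9%, 40.3% and 40.6% of all tested genes. For Ccr8 the Treg over Tconv difference was 3.16 ± 0.12 in the tumour, 4.19 ± 0.15 in the TB spleen and 4.90 ± 0.20 in the normal spleen, where Treg had 42.2 and 36.2 CPM and Tconv 1.27 and 1.34. For Ccr6 the differences were 2.79 ± 0.13, 4.40 ± 0.15 and 3.71 ± 0.16 in the same order of sites. Normal spleen Treg had 42.1 and 49.1 CPM of Ccr6, and normal spleen Tconv 3.67 and 3.29. Ccr4 had 169.9 and 201 CPM in normal spleen Treg and 24.05 and 23.7 in normal spleen Tconv, a difference of 2.96 ± 0.15. Gpr15 had 19.5 and 24.2 CPM in normal spleen Treg and 2.09 and 1.57 in normal spleen Tconv, a difference of 3.58 ± 0.24. None of the Treg values of these 4 genes overlapped the Tconv values at any site. How many of all tested genes separate in this way was not counted.

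Ccr3 had the largest Treg over Tconv difference in the tumour among all 29 receptors, 7.30 ± 0.34 (edgeR adjusted p = 3.83e-09), and it was 5.76 ± 0.40 in the TB spleen and 5.34 ± 0.43 in the normal spleen. Every Tconv library held 2 to 6 reads of it, against 120 to 1028 reads in the Treg libraries. Ccr2 was 4.88 ± 0.29 higher in Treg in the tumour, 1.58 ± 0.26 in the TB spleen and 1.72 ± 0.27 in the normal spleen. The summed macrophage markers ran from 474 to 542 CPM in tumour Treg and from 252 to 553 in tumour Tconv. The part of macrophages in the Ccr2 difference was not tested. Ccrl2 differed by 3.69 ± 0.12, 2.36 ± 0.15 and 3.59 ± 0.20 at the 3 sites, Ltb4r1 by 3.88 ± 0.27, 1.86 ± 0.30 and 3.79 ± 0.53, and Ptger2 by 1.87 ± 0.12, 2.13 ± 0.11 and 2.82 ± 0.11. Cxcr3 was 1.83 ± 0.19 higher in tumour Treg than in tumour Tconv. Its smaller difference in the TB spleen, 0.62 ± 0.18, was lost without TB spleen Treg 2 (0.58) and without TB spleen Tconv 1 (0.36), and that in the normal spleen, 0.64 ± 0.18, without normal spleen Treg 1 (0.48) and without normal spleen Tconv 2 (0.54).

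Receptors lower in Treg included both egress and entry receptors. S1pr1 differed by -2.24 ± 0.13 in the tumour (edgeR adjusted p = 2.3e-08), -0.999 ± 0.12 in the TB spleen and -0.84 ± 0.12 in the normal spleen, where Treg had 605 and 694 CPM and Tconv 1191 and 1129. Ccr7 differed by -1.002 ± 0.08, -1.48 ± 0.08 and -1.73 ± 0.08 at the same sites. Gpr183 was lower by a smaller step, -0.43, -0.51 and -0.50. Its call was lost without tumour Treg 1 (-0.35) in the tumour, without TB spleen Treg 1 (-0.38) or TB spleen Tconv 2 (-0.34) in the TB spleen, and without normal spleen Treg 1 (-0.42) in the normal spleen. Cxcr1 held 0 reads in all 4 spleen Treg libraries, against 39 and 62 reads in TB spleen Tconv and 27 and 76 in normal spleen Tconv. That is at least 39.0-fold lower in TB spleen Treg and at least 39.2-fold lower in normal spleen Treg, against a floor of 3 reads over the group. The 11 neutrophil markers in the table summed to 0.502 to 0.757 CPM in normal spleen Treg and 0.0954 to 0.204 in normal spleen Tconv, with 7 of them at 0 in each, and the part of other cells in the Cxcr1 difference was not tested. S1pr5 held 1 read over the tumour Treg group and 1 over the normal spleen Treg group, against 5 and 16 reads in tumour Tconv and 12 and 19 in normal spleen Tconv.

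Other receptors separated the cell types at some sites and not at others. Cxcr6 was lower in TB spleen Treg than in TB spleen Tconv (-4.98 ± 0.18, edgeR adjusted p = 9.59e-10) and lower in normal spleen Treg, 2.80 and 3.78 CPM, than in normal spleen Tconv, 72.4 and 64.0 CPM (-4.37 ± 0.18), and did not differ past the test in the tumour. The NK cell markers were lower in Treg at every site, all 3 of those tested, and summed to 13.2 to 15.9 CPM in TB spleen Treg and 64.6 to 96.2 in TB spleen Tconv. Cxcr5 was higher in TB spleen Treg (1.18 ± 0.22) and in normal spleen Treg (1.71 ± 0.23) than in Tconv of the same spleen. Cxcr5 differed by -0.06 ± 0.24 in the tumour, which did not pass. The 7 B cell markers, which would accompany B cells that carry Cxcr5, summed to 17.2 to 17.8 CPM in tumour Treg and 1.24 to 1.27 in tumour Tconv, to 21.3 to 22.0 CPM in TB spleen Treg and 2.03 to 2.24 in TB spleen Tconv, and to 22.2 to 26.1 CPM in normal spleen Treg and 1.95 to 2.19 in normal spleen Tconv. Of the 2 that were tested, 1 was higher in Treg and 1 was not called at each of the 3 sites. Their part in the Cxcr5 difference was not tested. Xcr1 was higher in tumour Treg (1.97 ± 0.40) and lower in TB spleen Treg (-1.96 ± 0.49; -1.36 and lost without TB spleen Treg 1) and normal spleen Treg (-2.27 ± 0.54; -1.55 and lost without normal spleen Tconv 2) than in Tconv. Cx3cr1 was higher in tumour Treg (2.19 ± 0.16) and TB spleen Treg (1.18 ± 0.20) and lower in normal spleen Treg (-2.68 ± 0.26). S1pr3 was higher in tumour Treg (1.79 ± 0.61; 1.43 and lost without tumour Treg 2, 1.37 and lost without tumour Tconv 2). In spleen Treg it was lower: it held 4 and 1 reads in TB mice against 7 and 12 in Tconv, a call lost without TB spleen Treg 2, either TB spleen Tconv library and 4 libraries outside the comparison, and 0 in normal mice against 5 and 6 in Tconv (at least 4.19-fold lower at the same floor). Ccr1 held 20 and 43 reads in TB spleen Treg against 0 and 6 in TB spleen Tconv, a call lost without TB spleen Treg 2 (2.46) and TB spleen Tconv 1 (2.26). The small Gpr34 difference in the tumour (0.34 ± 0.13) was lost without any of 9 of the 12 libraries, and that in the TB spleen (0.48 ± 0.11) without TB spleen Treg 1 (0.36). Cxcr4 was called in the tumour (0.85 ± 0.22). It was not called in the TB spleen (0.49 ± 0.22), but was without either tumour Tconv library or either normal spleen Tconv library (all 0.49), with no low-count filter (0.51) and in a fit of only the groups compared (0.50). Nor was it called in the normal spleen (0.30 ± 0.22), but it was without normal spleen Tconv 2 (0.75). Ccr9 was called in the TB spleen (-1.19 ± 0.20) and Ptger4 in the TB (0.61 ± 0.09) and normal (0.93 ± 0.09) spleens, while S1pr2 differed by 1.55 ± 0.13, 0.55 ± 0.12 and 0.85 ± 0.12 from tumour to normal spleen. S1pr4 was 0.31 ± 0.08 in the tumour and -0.32 ± 0.08 in the normal spleen. The first call was lost without tumour Treg 1 (0.22) and tumour Tconv 1 (0.21), and the second without normal spleen Treg 1 (-0.25) and normal spleen Tconv 2 (-0.26).

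**Figure D4:**
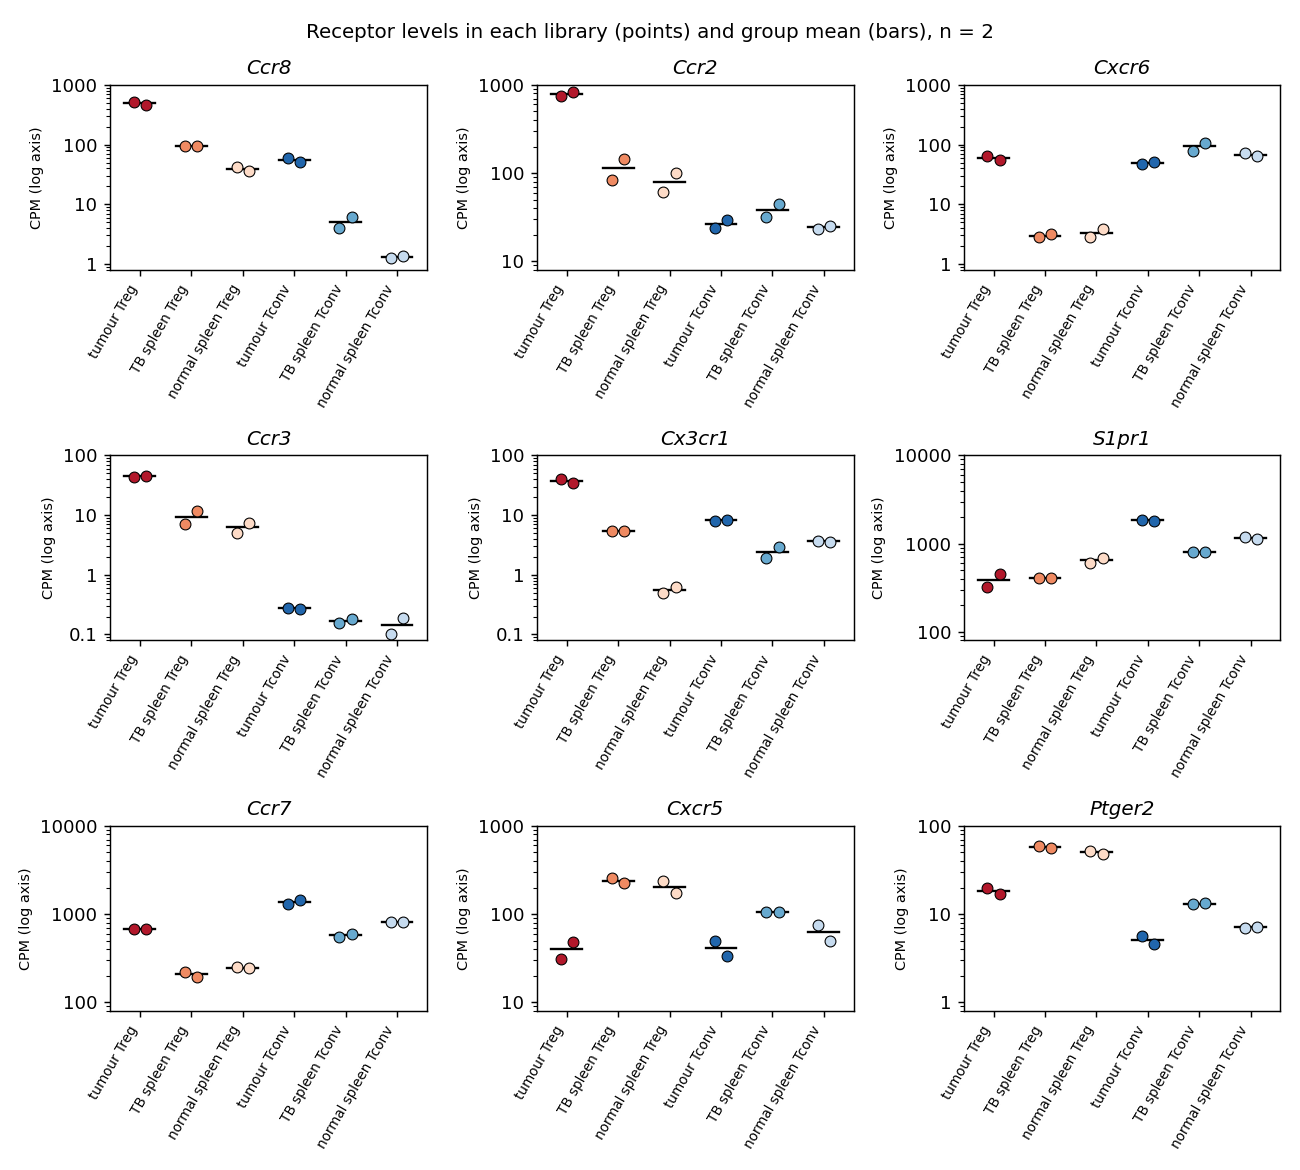
Level of 9 receptors in each library (points) with the group mean (black bars, n = 2), in CPM on a log axis; groups run from tumour, TB spleen and normal spleen Treg to the same sites in Tconv. Ccr8 is highest in the tumour and lowest in the normal spleen in both cell types, Cxcr6 is low in spleen Treg alone, and Cx3cr1 is lowest in normal spleen Treg (0.502 and 0.623 CPM).

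The spleens of TB mice were then compared with those of normal mice. In Treg 10 of the 29 were called, 6 higher and 4 lower, against a background of 15.3% called, 6.8% higher and 8.5% lower. In Tconv 13 were called, 8 higher and 5 lower, against 17.2% called, 9.74% higher and 7.49% lower. The median change was 0.32 in Treg and 0.37 in Tconv, and that of all tested genes 0.00 in both. Cx3cr1 had the largest change in Treg: 5.52 and 5.46 CPM in TB spleen Treg against 0.502 and 0.623 in normal spleen Treg (3.28 ± 0.25, edgeR adjusted p = 8.32e-06). These are 135 and 129 reads in TB mice and 12 and 14 in normal mice. In Tconv it had 1.88 and 2.92 CPM in TB mice against 3.72 and 3.53 in normal mice, a change of -0.58 ± 0.21 that did not pass, but did without TB spleen Tconv 2 (-0.95). The interaction was 3.86 ± 0.33 (edgeR adjusted p = 9.82e-05). Of the 29 receptors, only Cx3cr1 and Gpr34 (-1.04 ± 0.16) had a called interaction, against a background of 0.851% of all tested genes, and the Gpr34 call was lost without TB spleen Treg 2 (-0.93), normal spleen Treg 2 (-1.01) and normal spleen Tconv 2 (-0.92). Under other settings 3 more were called. These were Ccr9 and Ccrl2 with DESeq2 (-1.21 each), with no low-count filter (-1.20 each) and in a fit of only the groups compared (-1.22 each). Ccr9 was also called with the replicate block (-1.20), and Ptger2 in a fit of only the groups compared (-0.68). Each of the 3 was called without some single libraries too. Of the 12 tested macrophage markers, 1 rose in TB spleen Treg and 11 were not called, with a median change of 2.44; their sum was 121 to 125 CPM in TB spleen Treg and 90.7 to 113 in normal spleen Treg. Csf1r, a macrophage growth factor receptor, averaged 0.731 ± 0.224 CPM in TB spleen Treg and 0.0445 ± 0.0630 CPM in normal spleen Treg. The part of other cells in the Cx3cr1 change was not tested.

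Ccr8, Ccrl2 and Ltb4r1 rose in both cell types of the TB spleen. Ccr8 had 94.6 and 94.3 CPM in TB spleen Treg against 42.2 and 36.2 in normal spleen Treg (1.27 ± 0.12), and 4.01 and 6.24 CPM in TB spleen Tconv against 1.27 and 1.34 in normal spleen Tconv (1.99 ± 0.27). Ccrl2 had 3.02 and 4.35 CPM in TB spleen Tconv against 0.968 and 1.24 in normal spleen Tconv (1.74 ± 0.25), and 0.52 ± 0.13 in Treg was lost without any 1 of the 4 Treg libraries compared, at 0.47 to 0.57. Ltb4r1 had 23 and 35 reads in TB spleen Tconv against 2 and 4 in normal spleen Tconv (3.19 ± 0.57). In Treg its change was 1.26 ± 0.28, lost without TB spleen Treg 2 (1.03), normal spleen Treg 1 (1.13) and normal spleen Treg 2 (1.40). Ccr6 rose in Treg, with 73.0 and 87.6 CPM in TB mice against 42.1 and 49.1 in normal mice (0.82 ± 0.12), and Ptger2 in Tconv (0.89 ± 0.12), as did Gpr34 (0.71 ± 0.12). Cxcr4 in Treg (0.71 ± 0.22) and Cxcr5 (0.77 ± 0.23), Ccr9 (0.68 ± 0.20) and Cxcr6 (0.46 ± 0.13) in Tconv were also called higher, each lost without several single libraries: 8 for Cxcr4, 5 for Cxcr5, 3 for Ccr9 and 5 for Cxcr6.

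Ccr7, Gpr183 and S1pr1 fell in both cell types of the TB spleen. Gpr183 had 69.4 and 84.3 CPM in TB spleen Treg against 117 and 133 in normal spleen Treg (-0.70 ± 0.12), and 97.0 and 122 CPM in TB spleen Tconv against 181 and 173 in normal spleen Tconv (-0.69 ± 0.12). S1pr1 fell to 404 and 406 CPM in TB spleen Treg, against 605 and 694 in normal spleen Treg (-0.68 ± 0.12; -0.58 and lost without normal spleen Treg 2). In Tconv its change was -0.52 ± 0.12, lost without any 1 of the 4 Tconv libraries compared, at -0.48 to -0.56. Ccr7 changed by -0.49 ± 0.08 in Tconv. Its Treg call, -0.25 ± 0.08, was lost without TB spleen Treg 2 (-0.16), normal spleen Treg 1 (-0.23), normal spleen Treg 2 (-0.27) and either normal spleen Tconv library (-0.25 and -0.24). The TB spleen groups serve in both the tumour and the spleen comparisons, so these changes share samples. The remaining calls were S1pr4 (-0.37 ± 0.08, lost without TB spleen Tconv 1 and normal spleen Tconv 2) and Gpr15 (-1.19 ± 0.36, lost without any 1 of the 4 libraries compared) in Tconv and Ptger4 (-0.38 ± 0.09, likewise lost) in Treg.

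The genes lie partly side by side. In the GENCODE M21 annotation of GRCm38, 13 of the 29 are on chromosome 9, and 6 of these (Ccr9, Cxcr6, Xcr1, Ccr1, Ccr3 and Ccr2) fall within 435 kilobases at chr9:123678439-124113557. All 6 rose in tumour Treg, by 0.57, 4.32, 3.61, 4.32, 2.24 and 2.79 in their order along the chromosome. Of all tested genes, 32.8% were called higher in that comparison. In tumour Tconv the changes of the 6 were -0.57, -0.91, -0.32, 4.36, 0.69 and -0.51, of which Ccr1 rose and Ccr9 and Cxcr6 fell. Both Ccr9 calls rest on single libraries, as given above. Whether position has a part in these changes was not tested. Cx3cr1 and Ccr8, both higher in the tumour in each cell type, are 22.2 kilobases apart on the same chromosome.

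Genes that act with the receptors were read from lists chosen by function. Of 20 tested chemokine ligands, 16 rose and 4 were not called in tumour Treg, Xcl1 being the lowest at -1.10 ± 0.46, and 14 rose and 1 fell in tumour Tconv. That is 80.0% called in Treg, against 61.4% of all genes tested, and 75.0% in Tconv, against 49.1%. Ccl2, the ligand of Ccr2, averaged 21.2 ± 2.10 CPM in tumour Treg and 20.9 ± 16.2 CPM in tumour Tconv, and was at 0 in both TB spleen groups. Cxcl10, a ligand of Cxcr3, rose by 4.54 ± 0.19 in Treg and 3.75 ± 0.21 in Tconv, Cxcl16, the ligand of Cxcr6, by 1.90 ± 0.49 and 2.65 ± 0.60, and Cx3cl1, the ligand of Cx3cr1, by 3.66 ± 0.49 and 4.48 ± 0.54. Ccl5, which T cells make, rose by 3.20 ± 0.20 in Treg, and its change in Tconv was 0.31 ± 0.18. Fibroblast markers, which accompany cells that make many of these ligands, summed to 581 to 625 CPM in tumour Treg and 3.19 to 5.12 in TB spleen Treg, and to 319.7 to 819.9 CPM in tumour Tconv and 0.834 to 0.987 in TB spleen Tconv; their part in the ligand changes was not tested. Of 16 tested enzymes of the lipid ligands, 8 rose and 3 fell in Treg, and 10 rose and 3 fell in Tconv, which is 68.8% and 81.2% called beside the same 61.4% and 49.1%. The Treg share lay near the background, so the Treg count is no result about the list. Ptgs2, the inducible cyclooxygenase upstream of prostaglandin E2, averaged 164 ± 14.2 CPM in tumour Treg and 171 ± 107 CPM in tumour Tconv, against 1 TB spleen library of each cell type with any read; both differences were called.

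Of 23 tested genes of receptor coupling and desensitisation, 12 rose and 4 fell in tumour Treg, and 7 rose and 5 fell in tumour Tconv. The shares called, 69.6% and 52.2%, lay near the 61.4% and 49.1% of all genes tested, so the counts are no result about the list. Rgs1 and Rgs2, which shorten G protein signals, rose by 2.02 ± 0.16 and 4.35 ± 0.11 in Treg, and by 3.70 ± 0.18 and 3.88 ± 0.11 in Tconv. Rgs16 rose by 1.71 ± 0.21 in Treg and 1.79 ± 0.24 in Tconv. Cd69, which takes S1pr1 off the surface, rose by 1.22 ± 0.18 in Treg and 0.73 ± 0.18 in Tconv, so that S1pr1 RNA and Cd69 RNA were both higher in tumour Tconv. Of 21 tested genes of the migration machinery, 5 rose and 6 fell in Treg, and 2 rose and 8 fell in Tconv (52.4% and 47.6% called, at or below the background), with changes from -0.76 (Tiam1) to 1.12 (Rap1b) in Treg and from -0.83 (Rhoh) to 0.34 (Ezr) in Tconv. Of 17 tested regulators of trafficking genes, 8 rose and 4 fell in Treg, and 8 rose and 2 fell in Tconv. The shares called, 70.6% and 58.8%, lay somewhat above the 61.4% and 49.1% of all genes tested, and these counts are not read as a result about the list. Klf2, which drives S1pr1 transcription, rose by 0.38 ± 0.10 in Treg and 1.20 ± 0.10 in Tconv. Tbx21, known as an activator of Cxcr3, changed by 1.51 ± 0.20 in Treg and -0.89 ± 0.20 in Tconv, and Id2 by 3.04 ± 0.13 and -0.90 ± 0.12. Tcf7, a factor of naive and follicular T cells, changed by -2.25 ± 0.14 in Treg, and its change in Tconv was 0.21 ± 0.13.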

How the data were processed

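Per the submitters' processing notes, reads were handled with STAR and featureCounts on the mm10 assembly, with no versions; per the labels' protocols, libraries were stranded mRNA libraries. Whether featureCounts used strand is not given in these sources, so genes that share exonic bases on opposite strands are uncertain. The deposited values are raw whole-number counts per gene, 1 column per library, not scaled. Counts were analysed in R 4.3.3 with edgeR 4.0.16: filterByExpr by group kept 13509 of 24062 genes, TMM factors were 0.942 to 1.07, and 1 quasi-likelihood fit of 12 libraries and 6 group means left 6 residual degrees of freedom. Each of 7 comparisons and 2 interactions was a two-sided F test, called at a Benjamini-Hochberg adjusted p under 0.05 across the tested genes. SE is the log2 fold change divided by the square root of F. CPM use TMM-scaled totals; levels per length divide CPM by the exonic length of GENCODE M21. Where a group held 0 counts, the fold is given as a bound, with that group set to 3 counts, which covers counting error only.

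All 29 receptors are named. The receptors, role groups, other gene lists and marker lists were chosen with earlier results of these data known. No label says that libraries came from separate mice, so p-values measure only the spread between these samples, which may be technical; the chi-square per gene between the 2 libraries of a group was 3.27 to 16.1, where counting noise gives about 1. The procedure was tested on simulated counts. The alternatives tried were limma-voom (limma 3.58.1), DESeq2 1.42.0, DESeq2 size factors within edgeR, library-size scaling, other filters, fits of only the groups compared, a replicate block, an adjusted p of 0.01 and leaving out each of the 12 libraries.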

Additional observations from a re-analysis of the deposited data

Results flagged for a closer look

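The change from TB spleen to tumour differed between Treg and Tconv, by a tested interaction (Treg change minus Tconv change, edgeR adjusted p under 0.05, against 24.7% of all tested genes), for 19 receptors. The log2 difference was 5.23 for Cxcr6, 3.93 for Xcr1, 3.87 for S1pr3, 3.30 for Ccr2, 2.01 for Ltb4r1, 1.32 for Ccrl2, 1.21 for Cxcr3, 1.15 for Ccr9, 1.01 for Cx3cr1, 1.00 for S1pr2, 0.48 for Ccr7 and 0.44 for S1pr4. It was -2.86 for Gpr15, -1.61 for Ccr6, -1.24 for S1pr1, -1.23 for Cxcr5, -1.04 for Ccr4, -1.03 for Ccr8 and -0.50 for Ptger4. For 13 of the 19 the call remained under every alternative in which the gene was tested. Cxcr5 lost it without tumour Treg 1 (-0.94), TB spleen Treg 1 (-1.14) and TB spleen Tconv 2 (-1.22). S1pr4 lost it without tumour Treg 1 (0.35), TB spleen Treg 1 (0.43), tumour Tconv 1 (0.35) and TB spleen Tconv 2 (0.39). Ccr9 lost it without TB spleen Tconv 2 (0.89), and Cx3cr1 without tumour Treg 1 (0.87) and TB spleen Tconv 2 (0.65). S1pr3 lost it without tumour Treg 2 (3.50), TB spleen Treg 2 (3.24) and TB spleen Tconv 2 (3.55), and Ptger4 without TB spleen Treg 2 (-0.45) and TB spleen Tconv 1 (-0.43).

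The change from normal to TB spleen differed between Treg and Tconv, by the same kind of test, for Cx3cr1 (3.86) and Gpr34 (-1.04), against 0.851% of all tested genes. The Cx3cr1 call remained under every alternative and the Gpr34 call did not. With 2 libraries per group, no group could be searched for an outlying sample.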

How the results depend on the processing

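Of 158 calls of a receptor in a comparison, 116 remained under every alternative in which the gene was tested, and no call changed sign. Leaving out 1 library moved the number of receptors called within 19 to 24 for tumour Treg (24 in all libraries), 17 to 20 for tumour Tconv (19), 20 to 23 for Treg against Tconv in the tumour (23), 21 to 25 in the TB spleen (24), 21 to 25 in the normal spleen (24), 4 to 14 for TB against normal spleen Treg (10), 8 to 15 for Tconv (13), 14 to 19 for the site interaction (19) and 1 to 5 for the spleen interaction (2). The spleen comparisons were the least stable. For TB against normal spleen Treg 16 receptors were called in a fit of only the groups compared and 5 at an adjusted p of 0.01; 5 were called without TB spleen Treg 2, 5 without normal spleen Treg 1 and 4 without normal spleen Treg 2. For Tconv 7 were called at 0.01 and 8 without normal spleen Tconv 2. The spleen interaction called 4 with DESeq2, 4 with no low-count filter, 5 in a fit of only the groups compared, 1 without TB spleen Treg 2, normal spleen Treg 2 or normal spleen Tconv 2, and 5 without either tumour Tconv library; the cause was not tested. With library-size scaling the all-gene median shifted by -0.16 in tumour Treg and -0.11 in tumour Tconv, and the share of higher among called genes to 39.9% in Treg, against 53.3% with TMM, and to 41.5% in Tconv, against 53.7%. For TB against normal spleen it gave 66.5% in Treg, against 44.4%, and 78.5% in Tconv, against 56.5%. Same-numbered libraries of TB mice correlated at -0.0662 to 0.182. The highest values were those of Treg with Tconv of the same site, 0.182 in the tumour and 0.163 in the TB spleen. Descriptions and titles give different numbers for normal spleen libraries and the same numbers for TB libraries. The labels do not say whether libraries came from single mice, and the numbers were not taken as pairs. With the replicate block 8 calls were gained and 3 lost. Ccr2 lower in tumour Tconv was among those gained (-0.51, edgeR adjusted p = 0.0226). The number of receptors called stayed within 1.5 times in every comparison. Depth limits Cxcr1 in Treg, where it held 0 to 7 reads a group, and Cxcr2, S1pr3, S1pr5 and Ccr10 in every group (at most 43 reads a group). It also limits Ccr3 in Tconv (6 to 11 reads a group) and Ccr1 in TB and normal spleen Tconv (6 and 0). The same holds for Ltb4r1 in normal spleen Tconv (6) and Xcr1 in TB and normal spleen Treg (20 and 12).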
